A study of Mus musculus with 6 samples.

Results

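Tuft cells are rare epithelial cells that sense the contents of the gut lumen, and 9 genes that mark them were followed here in RNA of the mouse gastric antrum with and without the mucin gene Muc6. The genes are Pou2f3, Spib, Trpm5, Dclk1, Sh2d6, Rgs13, Avil, Il25 and Chat, picked by name from the 34866 genes of the deposited count table. All 9 had a row, and 7 passed the filter on low counts that left 14017 genes for testing. Il25 and Chat did not pass and are described by their counts. There were 3 libraries from antral mucosa of mice labelled Muc6 +/+ (wild type 1 to 3) and 3 from mice labelled Muc6 -/- (knockout 1 to 3). The series asks how Muc6 relates to gastric carcinogenesis. The design text calls the Muc6 -/- line newly made, and its strain, age and allele design were not given in the sources used here. Nothing states that each library came from its own animal, so p-values reflect only the spread among libraries, which may be technical.

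Muc6 was at 396, 403 and 510 CPM (counts per 1000000 of the scaled library) in wild type 1, 2 and 3, against 0.0425, 0 and 0 CPM in knockout 1, 2 and 3. The Y-linked gene Ddx3y was at 0.0580 to 0.326 CPM across wild type, against 39.3 to 41.1 CPM across the knockout, so sex and genotype coincided and cannot be told apart in any difference below. Libraries held 19839799 to 21354029 estimated counts, and 1 count was worth 0.0416 to 0.0580 CPM. Levels are CPM of the composition-scaled library (mean ± SD, n = 3 for each genotype), and a change is the log2 ratio of knockout to wild type, given with its standard error (SE) and an adjusted p from edgeR's quasi-likelihood test over all tested genes, called at a false discovery rate of 0.05. Wild type 1 and knockout 1 stood apart from the other 4 libraries on the second principal component (19.6% of the variance). The antral markers Pdx1 (36.5 ± 6.50 CPM), Gast (1040 ± 241 CPM) and Tff2 (5520 ± 1180 CPM) were present in wild type. In the knockout Gast, the gastrin gene, was at 16.4 ± 7.77 CPM, Pdx1 at 58.2 ± 3.16 CPM and Tff2 at 14800 ± 2530 CPM. Of 8 listed antral genes, all tested, 5 were called lower (Gast among them), 2 higher (Pdx1 and Tff2) and 1 neither. Over all tested genes 19.2% were called lower and 19.3% higher.

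Tuft cells carry taste-type receptors on their apical side and signal through a G protein, a phospholipase C, the inositol trisphosphate receptor and the cation channel TRPM5. They answer with interleukin 25, leukotrienes, prostaglandins and acetylcholine, and in the mouse intestine interleukin 25 acts on innate lymphoid cells whose interleukin 13 in turn increases tuft cell number. The transcription factor POU2F3 is needed for their formation. In bulk RNA, more tuft cells and more of a transcript in each tuft cell cannot be told apart.

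Of the 7 tested genes, Spib and Trpm5 rose in the knockout, none fell and 5 did not pass. Over all tested genes 19.3% were called higher and 19.2% lower (38.4% in either direction), so 2 of 7 is near the background. The median log2 fold change of the 7 was 0.88, beside 0.02 over all genes tested, and their fold changes ran from 0.06 to 1.36. The values of the genotypes did not overlap for 4 of the 7 (Pou2f3, Spib, Trpm5 and Sh2d6), with the knockout above, and 28.2% of all tested genes had the knockout above in this way and 26.6% below. With total counts in place of composition scaling, 4 of the 7 were higher, beside 40.9% of all genes, and with the trend over GC content removed none was, beside 17.9%. Single libraries ranked alike for most of the genes. Wild type 3 was the highest wild-type library for 6 of the 7, the exception being Avil, and knockout 2 was the lowest knockout library for 5.

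**Figure D1:**
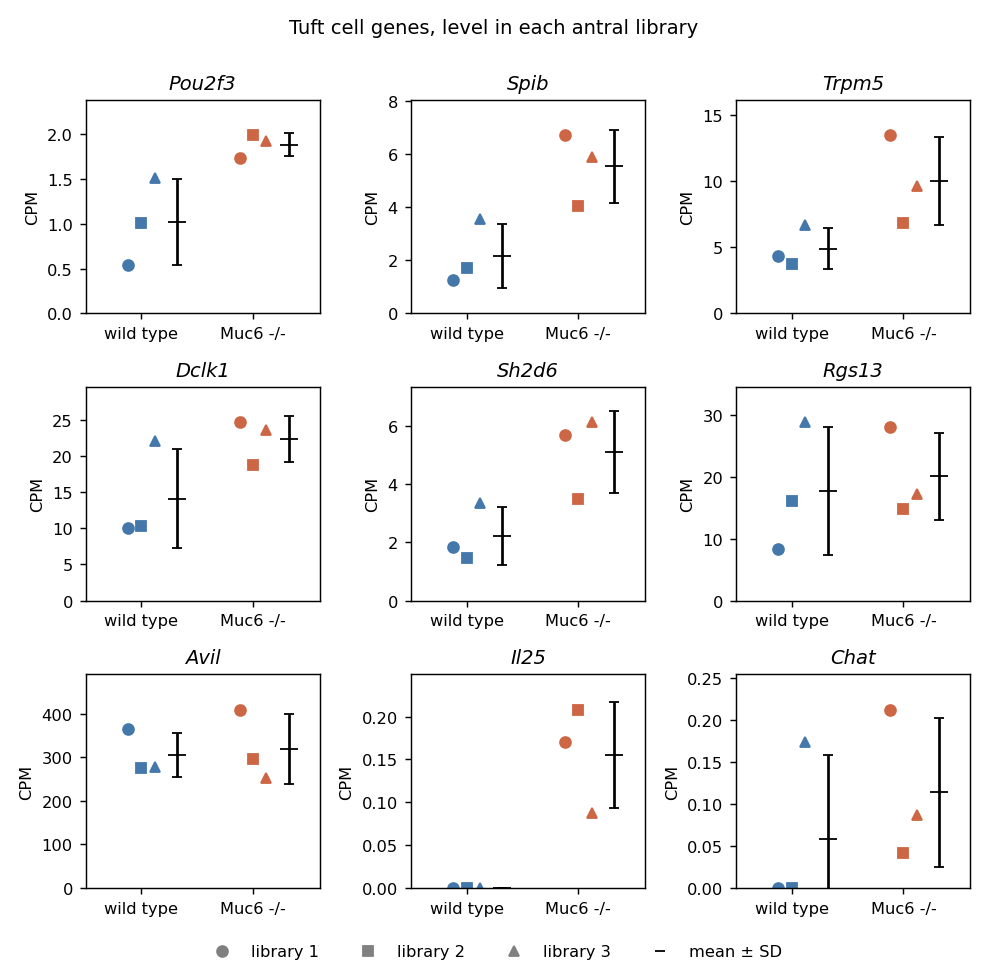
Level of each of the 9 tuft cell genes (CPM, linear axes from 0) in the 3 wild-type and 3 Muc6 -/- libraries, with mean and SD beside the points. Pou2f3, Spib, Trpm5, Sh2d6 and Il25 have all knockout libraries above all wild-type libraries, while Avil, at 253 to 409 CPM, and Rgs13 overlap.

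Pou2f3, which encodes the transcription factor that tuft cells require, had 0.543, 1.01 and 1.51 CPM across wild type 1, 2 and 3, against 1.74, 1.99 and 1.92 CPM in the knockout libraries in the same order of number. The groups did not overlap, the knockout libraries lay close together and the wild-type libraries spread 2.78-fold. The log2 fold change was 0.88 (SE 0.46, adjusted p = 0.168), which did not pass. These values rest on 10 to 48 counts per library.

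Spib, which encodes an ETS-family transcription factor of tuft cells, M cells (antigen-sampling epithelial cells) and B cells, was at 1.25, 1.69 and 3.54 CPM across the wild-type libraries, against 6.71, 4.03 and 5.89 CPM across the knockout libraries. All knockout libraries were above all wild-type libraries, with wild type 3 and knockout 2 nearest to each other. Spib rose by 1.36 on the log2 scale (SE 0.44, adjusted p = 0.0448), 2.57-fold. Leaving out any single library other than wild type 3 ended the call (adjusted p 0.0661 to 0.141), and so did leaving out both libraries numbered 1 (0.097) or removing the trend of each library over transcript GC content (0.0963). Markers of M cells, B cells and plasmacytoid dendritic cells were followed beside it. The 9 M cell genes summed to 71.1 to 91.9 CPM across wild type, against 391 to 483 CPM across the knockout. Most of the knockout sum came from Pglyrp1, which encodes a peptidoglycan recognition protein (259 CPM), and Gp2 (111 CPM). Of the 8 tested M cell genes 6 rose (75.0%, beside 19.3% of all tested genes) and none fell, among them Gp2, which encodes an apical receptor for bacteria, with 3 counts across wild type, against 7794 across the knockout (ratio 1970, 95% interval 673 to 9550, which covers counting error only). The 9 B cell genes summed to 0.956 to 1.96 CPM across wild type, against 1.87 to 3.23 CPM across the knockout. Cd79a, the only one of them tested, rose by 3.47 on the log2 scale (adjusted p = 0.0317), a call that ended without any single library other than wild type 1 (0.0595 to 0.109). Pax5 had no counts in wild type, and Ms4a1 reached at most 0.598 CPM in any library. The 6 plasmacytoid dendritic genes summed to 193 to 220 CPM across wild type, against 268 to 790 CPM across the knockout. Most of that sum came from Ly6d, which did not pass (adjusted p = 0.0859). Of 5 tested, Irf8 and Bst2 rose by 1.69 and 2.65 (40.0%, beside 19.3% of all tested genes) and none fell. Tcf4 was at 65.6 ± 6.25 CPM in wild type, against 54.6 ± 5.27 CPM in the knockout. It did not pass (log2 fold change -0.26, adjusted p = 0.115), but every knockout library was below every wild-type library, as in 26.6% of all tested genes. Ccr9 did not pass either (0.24, adjusted p = 0.764). Siglech, under the filter, was at 0.318 ± 0.0658 CPM in wild type, against 0.299 ± 0.176 CPM in the knockout. The part of any of these cell types in the level of Spib was not tested.

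Trpm5, the cation channel gene at the end of the taste transduction chain, was at 4.35, 3.71 and 6.67 CPM across the wild-type libraries, against 13.5, 6.86 and 9.68 CPM across the knockout libraries. The groups did not overlap, but wild type 3 and knockout 2 nearly touched. Trpm5 rose by 1.03 on the log2 scale (SE 0.33, adjusted p = 0.0417), 2.04-fold. The call ended without wild type 1 (adjusted p = 0.0835), wild type 2 (0.13), knockout 1 (0.123), knockout 3 (0.0846) or both libraries numbered 1 (0.128), with limma-voom (0.0614) and with the GC trend removed (0.101). Trpm5 lies 1.41 Mb from Muc6 on chromosome 7. Of 78 tested genes within 2 Mb of Muc6, 20 were higher (25.6%) and 4 lower, beside 19.3% and 19.2% of all tested genes. Trpm5 shares 220 exonic bases with Tssc4 on the other strand. Tssc4 was at 13.5 ± 3.13 CPM in wild type, against 18.5 ± 1.46 CPM in the knockout (adjusted p = 0.0856), and whether counting used the strand was not stated.

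The 250 bases upstream of the RefSeq start (GRCm38.p6) are shown for Spib and Trpm5, the called genes, and for Avil, whose level stood apart. Capitals mark the letters ATGCAAA, the first 7 of the octamer ATGCAAAT that POU factors such as POU2F3 bind, on either strand.
Spib (chr7:44532072-44532321, minus strand): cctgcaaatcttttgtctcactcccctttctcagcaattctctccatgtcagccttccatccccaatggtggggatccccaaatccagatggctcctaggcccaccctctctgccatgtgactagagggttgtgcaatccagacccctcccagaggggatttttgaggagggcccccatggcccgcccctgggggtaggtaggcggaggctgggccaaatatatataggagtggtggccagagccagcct
Trpm5 (chr7:143094643-143094892, minus strand): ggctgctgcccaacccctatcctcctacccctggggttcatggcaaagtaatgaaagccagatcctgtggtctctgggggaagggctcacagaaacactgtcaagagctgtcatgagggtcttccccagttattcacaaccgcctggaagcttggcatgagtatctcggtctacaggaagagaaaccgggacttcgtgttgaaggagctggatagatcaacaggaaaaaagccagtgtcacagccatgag
Avil (chr10:127000459-127000708, plus strand): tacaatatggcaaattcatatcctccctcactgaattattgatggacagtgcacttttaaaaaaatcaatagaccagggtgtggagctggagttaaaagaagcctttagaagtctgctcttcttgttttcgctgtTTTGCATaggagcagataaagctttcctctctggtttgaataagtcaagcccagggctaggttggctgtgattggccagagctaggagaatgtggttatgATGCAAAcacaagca
The RefSeq table held 8 such windows for 7 of the 9 genes (Dclk1 has 2, Pou2f3 and Il25 none). None of the 8 held the full octamer on either strand, and 1.6% of all 32851 windows did. The 7-letter form ATGCAAA occurred in the Avil window only, at 2 places, and in 4.12% of all windows. The last 7 letters of the octamer, TGCAAAT, are not marked and were not counted over all windows. The Spib and Chat windows hold them. A match or its absence describes these letters in these windows and says nothing of binding.

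Dclk1, a doublecortin-like kinase gene widely used to mark tuft cells and also active in neurons, was at 10, 10.3 and 22 CPM across the wild-type libraries, against 24.6, 18.7 and 23.6 CPM across the knockout libraries. The groups overlapped, because wild type 3 lay within the knockout range. The log2 fold change of 0.66 (SE 0.32, adjusted p = 0.143) did not pass, and without wild type 3 it was 1.12 and passed (adjusted p = 0.00861). Of 9 tested genes of neurons and glia, 1 fell, 2 rose and 6 did not pass, shares near or under those of all tested genes (19.2% lower and 19.3% higher). In 6 of the 9 every knockout library was below every wild-type library, as in 26.6% of all tested genes. Snap25, a synaptic vesicle fusion gene, fell by 2.31 on the log2 scale (SE 0.49, adjusted p = 0.00926), and Ret and S100b, genes of neural crest derivatives and other cells, rose by 2.08 and 2.52. Fibroblast genes summed to 44.6, 579 and 717 CPM in wild type 1, 2 and 3, against 389, 511 and 427 CPM in knockout 1, 2 and 3, so they were lowest in wild type 1. The part of either cell type in the level of Dclk1 was not tested.

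Sh2d6, which encodes an SH2-domain protein, was at 1.85, 1.46 and 3.36 CPM across the wild-type libraries, against 5.69, 3.49 and 6.11 CPM across the knockout libraries. All knockout libraries were higher, and the margin between wild type 3 and knockout 2 was small. The log2 fold change of 1.19 (SE 0.41, adjusted p = 0.053) narrowly missed the threshold, and with DESeq2 it passed (adjusted p = 0.0259).

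Rgs13 encodes a regulator of G protein signalling that mast cells and germinal centre B cells also use. It was at 8.37, 16.1 and 28.8 CPM across the wild-type libraries, against 28.1, 14.8 and 17.3 CPM across the knockout libraries, and the highest wild-type library was above every knockout library. The log2 fold change was 0.18 (SE 0.47, adjusted p = 0.791), and it was negative without wild type 1 (-0.16), knockout 1 (-0.14) or both (-0.50) and 0.89 with the GC trend removed (adjusted p = 0.144). Among mast cell genes, the proteases Mcpt1 and Mcpt2 rose by 7.24 (SE 0.94, adjusted p = 0.00406) and 4.86 (SE 0.27, adjusted p = 1.37e-04). The other 6 tested mast cell genes, Cpa3 and Kit included, did not pass. Thus 2 of 8 were called higher and none lower, beside 19.3% and 19.2% of all tested genes, so 2 of 8 is near the background. The list summed to 18.1 to 32.9 CPM across wild type, against 319 to 642 CPM across the knockout. Mcpt1 and Mcpt2 made up most of that sum, at 203 and 420 CPM of 642 CPM in knockout 1, the library where Rgs13 was highest among the knockout. Of the other 6 mast cell genes Hdc was also highest there, while Cpa3, Kit, Fcer1a and Tpsb2 peaked in knockout 3 and Ms4a2 in knockout 2. The part of mast cells in the level of Rgs13 was not tested.

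Avil encodes advillin, an actin-bundling protein of the villin family. Its level was 364, 276 and 277 CPM across wild type, against 409, 295 and 253 CPM across the knockout, with both extremes in the knockout. The log2 fold change was 0.06 (SE 0.20, adjusted p = 0.828). Per kilobase (kb) of exon, Avil was at 81.2 to 107 CPM per kb in wild type, far above Rgs13 at 5.06 to 17.4, and the other tuft cell genes were at 1.99 or less. In that order of levels Sh2d6, Dclk1, Trpm5 and Spib followed with overlapping ranges (means of 1.32, 0.922, 0.767 and 0.753 CPM per kb). Pou2f3 followed (0.331), its highest library (0.488) above the lowest of Spib (0.436). Chat (0.0123) and Il25 (0) came last. In the knockout the order from the top was Avil, Rgs13, Sh2d6, Spib, Trpm5, Dclk1, Pou2f3, Il25 and Chat, and the ranges overlapped from Sh2d6 through Dclk1. Avil shares 165 exonic bases with Tsfm on the other strand, a gene at 14.2 CPM in both genotypes.

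**Figure D2:**
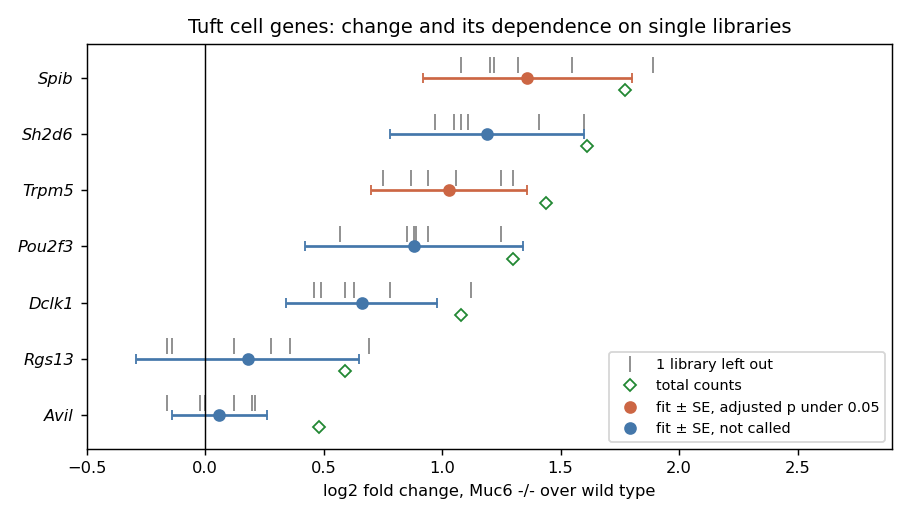
Log2 fold change of knockout over wild type for the 7 tested tuft cell genes (points, bars are SE), with the values after leaving out each library in turn (ticks) and with total counts in place of composition scaling (diamonds). Spib and Trpm5 were called, and for Rgs13 and Avil the ticks lie on both sides of 0.

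The products that tuft cells release were near the limit of detection. Il25, the gene of interleukin 25, had no counts in the 3 wild-type libraries and 4, 5 and 2 counts in knockout 1, 2 and 3. All knockout libraries were thus above all wild-type libraries, at 0.170, 0.208 and 0.0872 CPM. Against a floor of 3 counts over the wild-type group (0.0562 CPM) the pooled knockout level was 2.78-fold higher. That ratio leaves out the counting error of the 11 knockout counts and is no lower bound. With no low-count filter edgeR gave an adjusted p of 0.0805. Chat, which encodes the enzyme that makes acetylcholine, had 0, 0 and 3 counts across wild type, against 5, 1 and 2 across the knockout. The pooled ratio was 2.02 (95% interval 0.485 to 11.8), so no difference was detectable at this depth. Of the other acetylcholine genes, Ache, which breaks acetylcholine down, rose by 1.15 (SE 0.34, adjusted p = 0.0308), and Bche, a related esterase gene, fell by 0.75 on the log2 scale (SE 0.15, adjusted p = 0.0085). The call of Bche ended with total counts (adjusted p = 0.119) and with the GC trend removed (0.216). The call of Ache ended without wild type 2 or 3 or knockout 2 or 3 (0.0892 to 0.113) and with the GC trend removed (0.0595), while Slc5a7 and Chrm3 did not pass (0.143 and 0.0679).

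Counts of one gene set against another in the same library do not depend on scaling, so the tuft cell genes were also read against Epcam, an epithelial adhesion gene, and against Trpm5, both chosen after their values were seen. Epcam itself rose by 1.16 (SE 0.12, adjusted p = 6.71e-04). Per 1000 Epcam counts, Trpm5 had 11.8, 11.4 and 22.6 counts across wild type, against 19.1, 9.56 and 12.3 across the knockout. Spib had 3.39, 5.18 and 12 across wild type, against 9.48, 5.62 and 7.5 across the knockout. For both genes the genotypes overlapped, and wild type 3 was the highest library. Of the 7 genes Avil alone separated the genotypes, at 847 to 989 across wild type, against 322 to 578 across the knockout, whereas 77.9% of all tested genes separated them on this scale (73.7% with the knockout below, 4.27% above). Cldn7 and Cldn3, further epithelial genes, rose by 2.86 (SE 0.22) and 4.30 (SE 0.94), and the call of Cldn3 ended with limma-voom (adjusted p = 0.164) and without wild type 1 (0.059) or wild type 2 (0.0596). Cdh1 did not pass (0.32, adjusted p = 0.125) and Krt8 fell by 0.50 on the log2 scale, a call that ended with total counts (adjusted p = 0.596) and without wild type 2, knockout 2 or knockout 3 (0.0505 to 0.0655). Against Trpm5, none of the other 6 genes separated the genotypes, beside 49.7% of all tested genes (4.11% with the knockout above). Per Trpm5 count there were 0.208 ± 0.0755 Pou2f3 counts across wild type, against 0.206 ± 0.0813 across the knockout, and 2.79 ± 0.498 and 2.33 ± 0.461 Dclk1 counts.

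**Figure D3:**
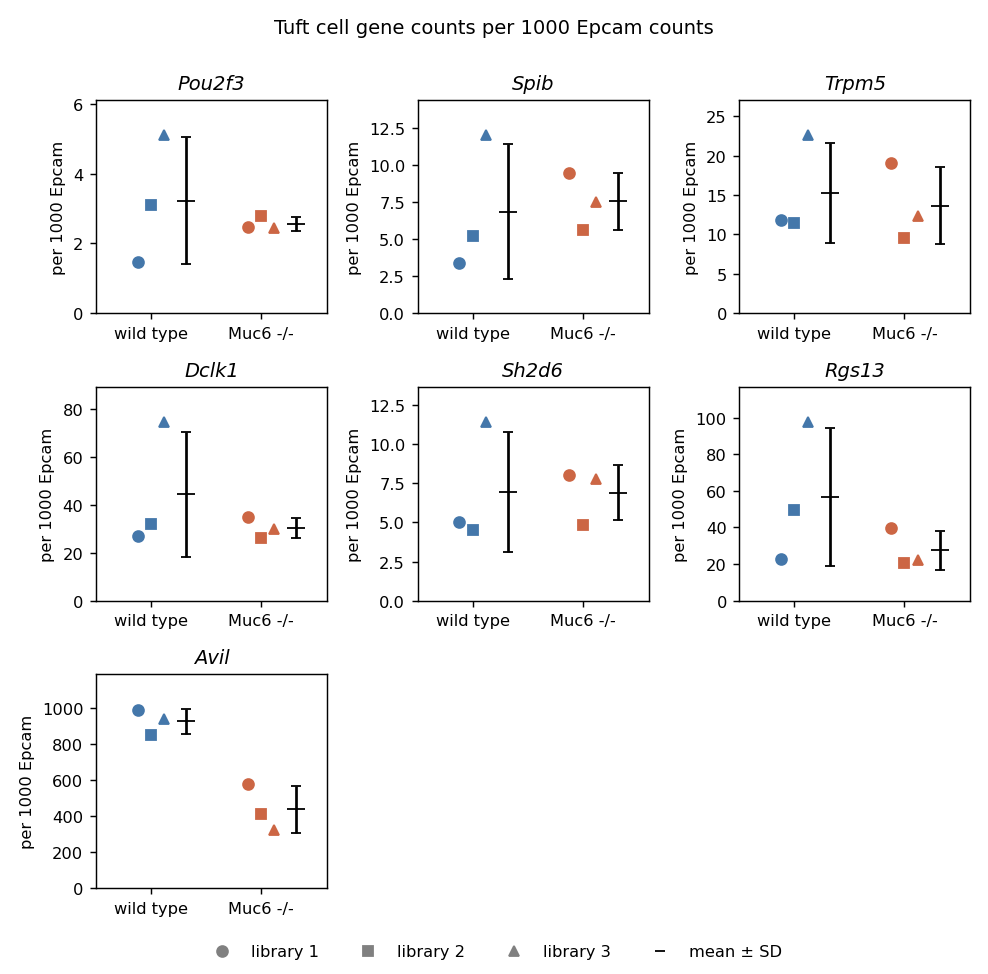
Counts of the 7 tested tuft cell genes per 1000 Epcam counts in each library (linear axes from 0, mean and SD beside the points). The genotypes overlap for all but Avil, which is at 924 ± 71.6 across wild type, against 437 ± 130 across the knockout.

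The other genes of the tuft cell programme were called higher more often than lower. They were taken from 4 lists by role, with 54 genes in all, of which 52 had a row and 39 were tested, and 10 rose, 1 fell and 28 did not pass. The share higher, 25.6%, compares with 19.3% of all tested genes, and the 1 of 39 lower with 19.2%. The median log2 fold change was 0.38 beside 0.02. Several of these genes are not particular to tuft cells. Krt18 and Vil1 are found across simple epithelia, and Ptprc, Vav1, Inpp5d and Pik3cg across white blood cells.

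No taste transduction gene of the list rose. Of 17 listed, 7 had no counts in any library, among them Tas1r2 and the 5 listed bitter receptors. Of 6 tested Gnat3 fell and 5 did not pass, beside 19.2% lower and 19.3% higher over all tested genes. Gnat3, the gene of gustducin, the taste G protein, was at 2.83, 8.10 and 11.9 CPM across the wild-type libraries, against 2.12, 1.29 and 3.31 CPM across the knockout libraries. The groups overlapped through wild type 1. It fell by 1.76 on the log2 scale (SE 0.57, adjusted p = 0.0458), a call that ended without wild type 2 or 3 or any single knockout library (0.0516 to 0.14), with total counts (0.0864), limma-voom (0.0984) or the GC trend removed (0.0957). Per Trpm5 count there were 0.650, 2.18 and 1.79 Gnat3 counts across wild type, against 0.157, 0.188 and 0.342 across the knockout, which did not overlap, as held for 45.6% of all tested genes with the knockout below. Sucnr1, the succinate receptor gene, was at 1.63, 1.86 and 1.45 CPM across the wild-type libraries, against 0.637, 0.0416 and 0 CPM across the knockout libraries (log2 fold change -2.83, SE 1.06, adjusted p = 0.0703), which did not pass. The signalling genes Plcb2 (0.71, adjusted p = 0.398) and Itpr3 (0.23, adjusted p = 0.257) did not pass.

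Among the enzymes of leukotriene and prostaglandin synthesis, 1 of 5 tested genes rose and none fell. Of all tested genes 19.3% were called higher and 19.2% lower, so 1 of 5 is near the background. Alox5ap, the activating protein of 5-lipoxygenase, was at 1.41, 2.47 and 3.31 CPM across the wild-type libraries, against 8.88, 4.11 and 7.24 CPM across the knockout libraries and rose by 1.49 (SE 0.42, adjusted p = 0.0269). Its partner Alox5 (1.19, adjusted p = 0.0899) did not pass, nor did Ltc4s, Ptgs1 and Hpgds, at log2 fold changes of -0.09 to 0.26. The Alox5ap call ended without wild type 2, knockout 1 or knockout 3 (0.0721 to 0.0828) and without both libraries numbered 1 (0.0552).

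Of 7 tested transcription factors of the list, Sox4 and Sox9, which other epithelial cells also use, rose by 2.02 (SE 0.45, adjusted p = 0.0167) and 0.89 (SE 0.19, adjusted p = 0.00956). These 2 were 28.6% of the 7, beside 19.3% of all tested genes, and none of the 7 fell. The call of Sox4 ended without wild type 2 (adjusted p = 0.0572). The homeobox genes Hmx2 and Hmx3 did not pass (0.39 and 1.55, adjusted p = 0.661 and 0.109). Gfi1b, a zinc finger repressor gene of tuft cells, was under the filter at 0 to 0.174 CPM across wild type, against 0.166 to 0.436 CPM across the knockout.

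Genes of structure and signalling gave 7 of 21 higher (33.3%, beside 19.3% of all tested genes) and none lower. Inpp5d, a lipid phosphatase gene, rose by 2.17 (SE 0.44, adjusted p = 0.00809), from 0.945 ± 0.448 to 4.26 ± 1.04 CPM, and Skap2, an adaptor gene, by 0.94 (SE 0.15, adjusted p = 0.00285). Krt18 and Vil1 rose by 0.99 and 0.72, and Ptprc, Vav1 and Pik3cg by 1.66, 1.74 and 1.15. Bmx, a kinase gene used to mark tuft cells, did not pass (0.90, adjusted p = 0.17), nor did Siglecf and Il17rb (0.33 and 0.28). The call of Vav1 ended without wild type 1 or 2 or knockout 1 or 3 (0.0599 to 0.0992), without both libraries numbered 1 (0.0765) and with the GC trend removed (0.0516). That of Ptprc ended without wild type 2 or any single knockout library (0.0605 to 0.105), and that of Pik3cg without wild type 2 or knockout 1 or 2 (0.0674 to 0.0891) and without both libraries numbered 1 (0.0648). Vil1 was lost without wild type 2 or knockout 2 (0.0653 and 0.0547).

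**Figure D4:**
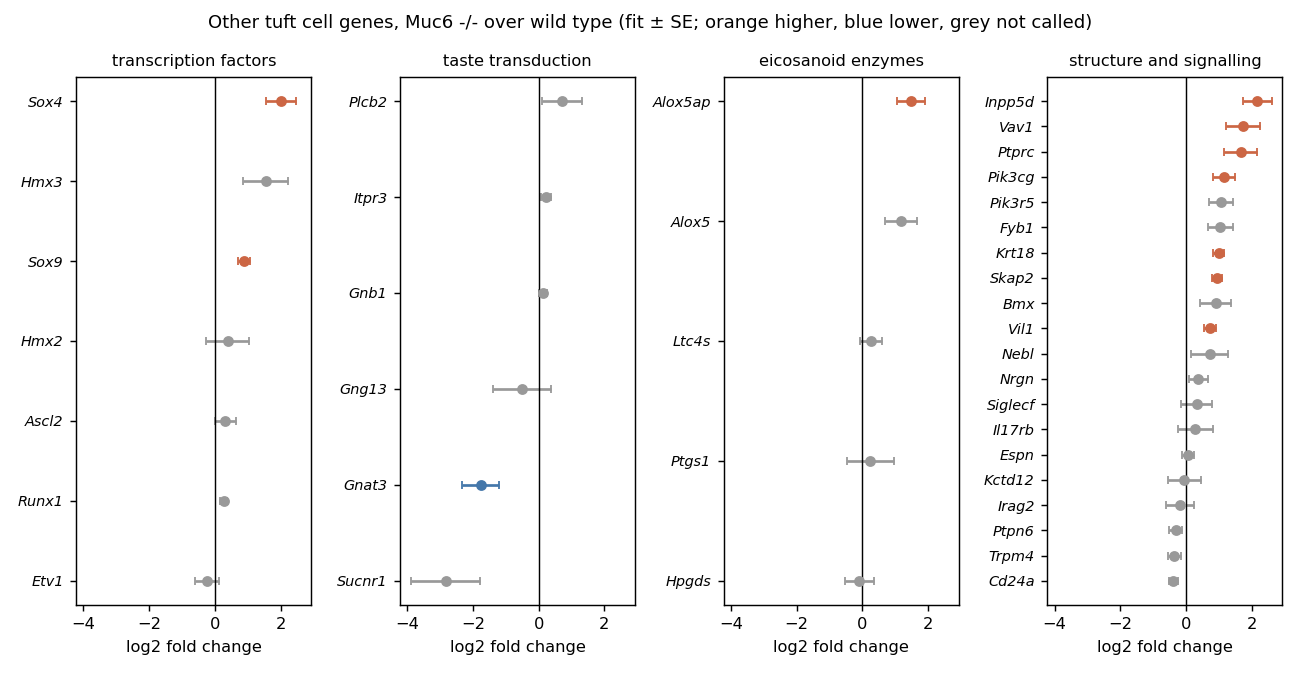
Log2 fold change of knockout over wild type, with SE, for tested genes of the tuft cell programme, of which not all are drawn, grouped by role. Of these 10 were called higher (orange) and Gnat3 lower (blue), and the rest (grey) did not pass.

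Of 10 genes listed for the type 2 immune circuit that tuft cells feed, 6 were tested. Of these 4 rose and none fell, beside 19.3% and 19.2% of all tested genes. Il33, an epithelial alarm cytokine gene, rose by 1.98 (SE 0.20, adjusted p = 6.31e-04), from 42.4 ± 10.7 to 167 ± 23.7 CPM, and Il1rl1, which encodes the interleukin 33 receptor, by 4.85 (SE 1.17, adjusted p = 0.026). Il4ra, a receptor subunit gene for interleukins 4 and 13, rose by 2.52 (SE 0.29, adjusted p = 0.00127), and Gata3, a transcription factor gene of type 2 lymphocytes, by 2.92 (SE 0.52, adjusted p = 0.00472). The genes of the lymphocyte cytokines were scarcely detected. Il4 had 7, 4 and 1 counts across wild type, against 9, 8 and 4 across the knockout. Il13 had no counts across wild type, against 1, 0 and 2 across the knockout, Il5 had none across wild type, against 0, 2 and 2 across the knockout, and Il9 had none in any library. Tslp, another epithelial cytokine gene, was lower in every knockout library (0.0872 to 0.595 CPM) than in any wild-type library (0.812 to 1.24 CPM) but did not pass (log2 fold change -1.53, adjusted p = 0.106). The call of Il1rl1 ended without wild type 2 or 3 or knockout 2 or 3 (0.0626 to 0.087) and with no low-count filter (0.0694). Which cells the Il33, Il1rl1, Il4ra and Gata3 transcripts came from was not tested.

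**Figure D5:**
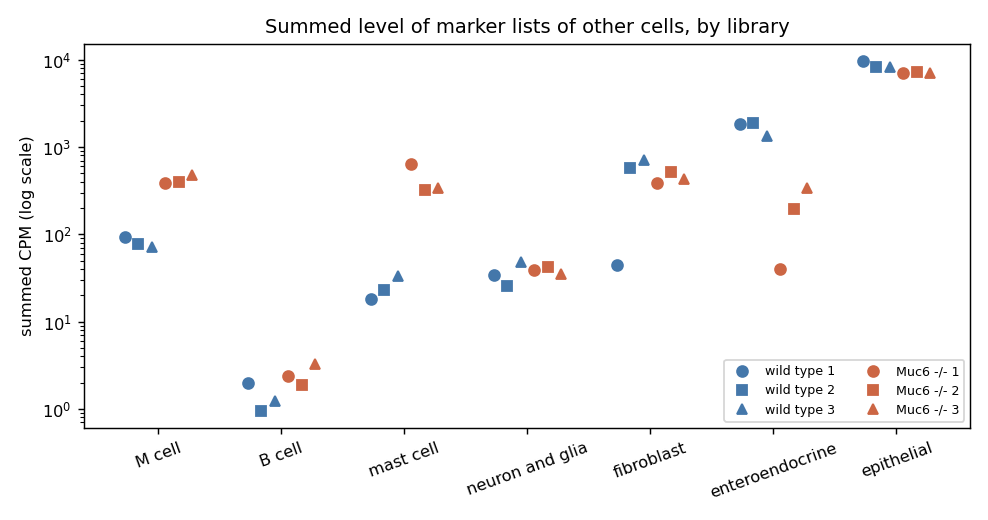
Summed CPM (log axis) of marker lists of other cells in each library. M cell and mast cell lists are higher in all knockout libraries, enteroendocrine genes are lower (1330 to 1860 CPM in wild type against 40.0 to 340.0 CPM in the knockout), and fibroblast genes are lowest in wild type 1 (44.6 CPM).

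The mean profile of the 7 tested genes, as log2 CPM (pseudocount 0.05 CPM) centred on each gene's own mean, was -0.80, -0.61 and 0.18 in wild type 1, 2 and 3 and 0.69, 0.12 and 0.42 in knockout 1, 2 and 3. Wild type 3 was thus above knockout 2 on this scale. Neighbours were sought among tested protein-coding genes outside the set with a mean of at least 1 CPM. Genes with provisional (Gm, Rik, LOC or clone) or pseudogene names were left out. Among those kept, the 5 nearest by root mean square difference over the 6 libraries were Zdhhc8 (0.0945), Jdp2 (0.106), Dnah8 (0.107), Map3k14 (0.131) and Pde4a (0.143, all in log2 units). Of the 7 genes themselves Dclk1 lay nearest to the mean profile (0.112) and Avil farthest (0.578).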

How the data were processed

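Polyadenylated RNA of antral mucosa was sequenced in 6 libraries made with a TruSeq Stranded mRNA kit, per the labels' protocols. The authors deposited estimated counts per gene, a unit read from the values (28.8% to 34.3% of values above 0 are not whole). The build was mm10, per the submitters' processing notes, and no aligner, counting program, annotation or strand setting was given in the sources used here. Of 34866 identifiers, 34652 matched GENCODE M21, which is on that build, with versions removed. Pou2af2 and Pou2af3 had no match.

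Counts were rounded, filtered with filterByExpr, scaled with TMM and tested with edgeR 4.0.16 (robust quasi-likelihood, R 4.3.3) with Benjamini-Hochberg adjustment over 14017 genes. SE is the fold change over the root of the F statistic. On simulated counts for 14017 genes the test recovered 40% of 2-fold and 72% of 4-fold changes among 200. Libraries of a genotype differed by a chi-square per degree of freedom of 16.0 to 79.6, and all 6 were kept as separate samples. Intervals and floors cover counting error only.

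Alternatives used limma 3.58.1 (voom), DESeq2 1.42.0, other scalings, filters and thresholds, a replicate block, a GC offset and left-out libraries. The members and gene lists were chosen with earlier results of these data known. Within a list, called genes were ranked by adjusted p and at most 4 were followed through the alternatives. Where no gene of a list passed, 2 were picked by p. Several of these picks, such as Marcksl1, Ccl20, Gkn1, Gkn2, Sst, Col1a1 and Lum, are not described in the results. Pdx1, a called gene outside the picks, is described. The called genes Ptprc, Vav1 and Pik3cg, and uncalled or untested genes of the lists such as Ms4a1, Sucnr1 and Alox5, were added after their values were seen. Some listed genes are counted in their lists but not reported here by name.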

Additional observations from a re-analysis of the deposited data

How the results depend on the processing

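The number of tuft cell genes higher, 2 as reported, was 4 with total counts, 1 with limma-voom, 0 with the GC trend removed, 0 without both libraries numbered 1, 0 at a false discovery rate of 0.01, and 0 to 4 with 1 library left out. The 4 with total counts and the 4 without wild type 3 were Dclk1, Sh2d6, Spib and Trpm5, where 40.9% and 13.2% of all tested genes were higher. Under total counts the all-gene median was a log2 fold change of 0.433. No tuft cell gene was called lower in any of these fits. Of the other tuft cell genes, 18 were higher and 0 lower with total counts, and 4 and 0 at a false discovery rate of 0.01. Those lower numbered 3 with DESeq2, 3 without both libraries numbered 1, and 0 to 2 with 1 library left out, and those higher 4 to 14.

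The sign of Avil turned with the GC trend removed (-0.17) and without both libraries numbered 1 (-0.03), and it ran from -0.16 to 0.21 with 1 library left out. Rgs13 ran likewise from -0.16 to 0.69, and was -0.50 without both libraries numbered 1 and 0.89 with the GC trend removed. The cause was not tested.

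With the replicate block, 3 tuft cell genes were higher, Sh2d6 added (adjusted p = 0.0297). Of the other named genes Alox5 was gained (0.0487), and Ache (0.0573), Krt8 (0.0551), Ptprc (0.0826) and Pik3cg (0.0596) were lost. Deviations of same-numbered libraries correlated at 0.252, 0.0908 and 0.191, and those of differently numbered ones at -0.291 to 0.275. The labels do not say that the numbers pair the samples, and 3 libraries per genotype cannot settle it. Depth limits Pou2f3, at 10 to 48 counts a library, and Il25 and Chat, at 0 to 5.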
